A study of Mus musculus with 38 samples.

Results

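The T cell receptor complex and the enzymes next to it were followed in mouse spleen cells after cyclophosphamide, through 10 listed genes: Cd3d, Cd3e, Cd3g, Cd247, Lck, Zap70, Cd4, Cd8a, Thy1 and Cd5. A probe was a member when the array's annotation paired it with 1 of these genes, and 8 of the 10 genes had a probe, 1 each, among 13443 probes on the array. Lck and Cd5 had none. Testing was limited to probes measured in 3 or more mice of all 4 groups, which 3 members were: Cd4, Cd8a and Zap70. Spleen cells came from DBA/2 mice, 5 of them untreated. The treated mice had been given 83 mg/kg of cyclophosphamide, an alkylating drug most toxic to dividing cells, and 4 were taken on day 1, 5 on day 2 and 5 on day 5. Every group was of this strain, and no genetic change is given for any of them. Each mouse had 2 technical array measurements, each a log2 ratio of its RNA over a common pool of DBA/2 bone marrow cells. A value above 0 therefore means more of the transcript, relative to the rest of the array, in spleen cells than in the pool.

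The T cell receptor recognises peptides held by MHC molecules but has almost no signalling tail of its own. The CD3 chains (Cd3d, Cd3e, Cd3g) and the zeta chain (Cd247) carry the signal inward: the kinase Lck, held at the coreceptors CD4 or CD8, phosphorylates their tails, and the kinase ZAP-70 binds there and passes the signal on. Helper T cells carry CD4 and cytotoxic T cells CD8, both are plentiful in spleen, and most of them are resting. Thy-1 is a surface protein of all mouse T cells, and CD5 is a surface protein that dampens receptor signalling.

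The start sites of the members were read from RefSeq promoter sequences (GRCm38.p6), each window running from 250 bases before a start to 50 after it. Of the 10 members 8 had entries, in 11 windows, and Cd4 and Thy1 had none. A search on both strands for 5 short motifs gave AGGAAG, the core bound by Ets factors, in 6 of the 8 genes (Cd247, Cd3d, Cd3e, Cd5, Lck and Zap70), against 38.4% of all 27025 genes in the table. TGTGGT, a Runx core, was in 2 of 8 (Lck and Zap70, against 18.9% of all genes), and the E-box CAGCTG in 2 of 8 (Cd3g and Cd8a, against 18.3%). The letters AGATAA, bound by factors of the GATA family, were in Cd3g alone, against 12.7% of all genes. The TATA box, searched as TATAAA, was in none of the 8, against 15.7%. None of the 5 motifs is contained in another, and a match describes letters, not binding. Cd3g and Cd3d, on chromosome 9, are transcribed away from each other, with 854 bases between their windows. For the tested members with an entry, a Zap70 window (1 of 3) and the Cd8a window are shown 5′ to 3′ on the gene's strand, with the matched letters in capitals. The Zap70 window is chr1:36764265-36764564 (+) and holds the Ets core at 2 places around the Runx core, and the Cd8a window is chr6:71373177-71373476 (+) and holds the E-box.
Zap70: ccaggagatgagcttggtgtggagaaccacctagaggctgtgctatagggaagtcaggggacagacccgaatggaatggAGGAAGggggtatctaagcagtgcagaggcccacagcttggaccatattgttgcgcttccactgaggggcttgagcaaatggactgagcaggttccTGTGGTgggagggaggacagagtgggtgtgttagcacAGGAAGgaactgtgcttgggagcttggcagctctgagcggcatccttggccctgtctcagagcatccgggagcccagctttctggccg
Cd8a: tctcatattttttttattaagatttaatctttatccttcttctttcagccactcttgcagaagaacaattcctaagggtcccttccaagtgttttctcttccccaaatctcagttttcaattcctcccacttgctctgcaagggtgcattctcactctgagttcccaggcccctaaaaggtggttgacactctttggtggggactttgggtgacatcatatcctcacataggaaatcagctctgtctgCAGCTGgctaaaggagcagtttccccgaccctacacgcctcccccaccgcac

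How far the receptor genes could be read differed by subunit. The median member probe had a value on 46.1% of the 38 measurements, against 81.6% for the median of all probes. Cd4 and Cd8a had values on 30 measurements each and Zap70 on 28. Cd3g had values on 18 and Thy1 on 17, while the other signalling chains were nearly unread: Cd3e and Cd247 had 3 values each and Cd3d had 2. No member had a value in day 2 mouse 3. A missing value is not a low value, and the rule by which spots were left out was not given in the sources used here.

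In untreated spleens the helper coreceptor gene lay above the marrow pool, and of the cytotoxic coreceptor the alpha chain lay close to it. Cd4 was above 0 in 4 of 4 untreated mice with a value, Cd3g in 3 of 3, Thy1 in 2 of 2 and Zap70 in 2 of 3, whereas Cd8a was above 0 in 3 of 5. Cd8b1, the beta chain that pairs with CD8 alpha and no listed member, averaged 0.75 ± 0.27 (SD, n = 5) in untreated mice. As a check of the direction, the median of 6 neutrophil and early granule genes lay below 0 in 5 of 5 untreated mice, at -1.91 in the median mouse. Mature B cell genes, 8 tested, had a median near 0 in untreated mice (-0.104 to 0.0721), but the single genes differed widely. Among them Ms4a1 averaged 1.57 and Cd22 1.47, while Blnk averaged 0.158, Cd79a 0.0327, Blk -0.0327, Fcer2a -0.163 and Cd37 -0.256. Measurements held 5829 to 10407 values each, and the 2 measurements of a mouse correlated at 0.581 to 0.962, below 0.7 in 3 mice (untreated 2, untreated 4 and day 5 mouse 5).

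The question was whether the receptor genes changed on any day after the drug. No change was called for any tested member, which does not show that their levels stayed the same. On day 1, 0 of 3 passed at an adjusted p of 0.05 (limma, Benjamini-Hochberg adjustment over 8319 probes), where 2.33% of all probes passed (0.938% upward and 1.39% downward). On day 2, 0 of 3 passed, against 8.31% of all probes (3.31% upward and 5.00% downward). On day 5 against untreated 0 of 3 passed, against 0.0721% of all probes. Between days, 0 of 3 passed for day 2 against day 1 (0.0601% of all probes) and 0 of 3 for day 5 against day 2 (5.30%, with 3.80% upward and 1.50% downward). The F-test over the 4 conditions gave adjusted p = 0.607 for Cd4, 0.872 for Cd8a and 0.648 for Zap70. None of the 15 member differences had an unadjusted p below 0.05 either. With 3 genes and these background shares, a count of 0 separates the members from other probes in no comparison. The comparisons with untreated share the same control mice.

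Cd4, the coreceptor of helper T cells, had log2 ratios of 0.04, 0.29, 0.30 and 0.79 in untreated mice. On day 1 its values were 0.52, 0.55, 0.57 and 1.09, on day 2 0.44, 0.75, 0.85 and 0.87, and on day 5 0.40, 0.44, 0.49, 0.85 and 1.22. Untreated mouse 4, at 0.79, lay inside the range of every treated group, and the other 3 untreated mice lay below all 13 treated mice with a value. Each of these 3 had Cd4 on 1 measurement alone. Untreated mouse 4 and the treated mice had it on 2, except day 1 mouse 3 with 1. The group means were 0.35 ± 0.31 (SD, n = 4) in untreated mice, 0.68 ± 0.27 (n = 4) on day 1, 0.73 ± 0.20 (n = 4) on day 2 and 0.68 ± 0.35 (n = 5) on day 5.

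The Cd4 difference from untreated was 0.33 ± 0.20 (SE) on day 1 (95% interval -0.095 to 0.75, adjusted p = 0.537) and 0.37 ± 0.20 on day 2 (-0.048 to 0.80, adjusted p = 0.307). On day 5 it was 0.33 ± 0.19 (-0.073 to 0.73, adjusted p = 0.923). As folds these are 1.25, 1.30 and 1.25, and the intervals reach from 0.936 to 1.68, from 0.967 to 1.74 and from 0.951 to 1.66. The intervals thus hold both no difference and a level up to 1.74-fold higher, and none reaches a fold below 0.936. Untreated mouse 4 had Cd4 values of 0.47 and 1.11 in its 2 measurements. Without it the day 2 difference was 0.52 ± 0.20 (adjusted p = 0.157). With the 2nd technical column alone, in which mouse 4 is the only untreated mouse with a Cd4 value, the differences turned negative (-0.43, -0.29 and -0.43 on days 1, 2 and 5).

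Cd8a, the alpha chain of the cytotoxic T cell coreceptor, had group means close to the marrow level (-0.14 to 0.049). Untreated mice had -0.28, -0.069, 0.0031, 0.12 and 0.18. Its values were -0.51, -0.10, -0.052 and 0.11 on day 1, -0.061, -0.059, 0.083 and 0.11 on day 2, and -0.13, -0.032 and 0.31 on day 5. All 4 groups overlap, and day 1 mouse 4 was lowest of all 16 mice. The difference from untreated was -0.13 ± 0.15 (SE) on day 1 (95% interval -0.44 to 0.18, adjusted p = 0.797), 0.028 ± 0.15 on day 2 (-0.28 to 0.34, adjusted p = 0.940) and 0.058 ± 0.16 on day 5 (-0.28 to 0.40, adjusted p = 0.990). Across these intervals the fold lies between 0.738 and 1.31, the narrowest range of the 3 tested members.

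Zap70, the kinase recruited to the phosphorylated CD3 and zeta chains, had -0.090, 0.21 and 0.34 in the 3 untreated mice with a value. It had -0.055, 0.14, 0.20 and 0.48 on day 1, -0.091, 0.63, 0.64 and 0.97 on day 2, and 0.14, 0.46, 0.47 and 0.72 on day 5. On day 2, 3 of 4 mice lay above every untreated mouse and mouse 4 lay at the bottom of both groups, at -0.091. The difference from untreated was 0.037 ± 0.22 (SE) on day 1 (95% interval -0.43 to 0.50, adjusted p = 0.977), 0.38 ± 0.22 on day 2 (-0.086 to 0.85, adjusted p = 0.350) and 0.29 ± 0.22 on day 5 (-0.17 to 0.76, adjusted p = 0.932). Day 2 exceeded day 1 by 0.34 ± 0.20 (adjusted p = 0.869). Without day 2 mouse 4 the day 2 difference was 0.59 ± 0.19 and still missed the threshold (adjusted p = 0.0758), the nearest any member came to it under the settings tried. A fold of up to 1.80 on day 2 remains inside the interval.

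No difference between days passed for the members. For day 2 against day 1 the differences were 0.16 for Cd8a and 0.047 for Cd4, and for day 5 against day 2 they were 0.030 for Cd8a, -0.047 for Cd4 and -0.088 for Zap70. The median of the 3 members was 0.037 on day 1, 0.37 on day 2 and 0.29 on day 5 against untreated, beside medians of 0.023, 0.0070 and 0.013 over all tested probes. The technical spread was of the same order as these differences: the 2 measurements of a mouse differed by a median of 0.12 for Cd4, 0.25 for Cd8a and 0.13 for Zap70. Because the RNA came from mixed spleen cells, fewer T cells and less RNA per T cell cannot be told apart, nor can a steady share from a fall shared by most transcripts.

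**Figure D1:**
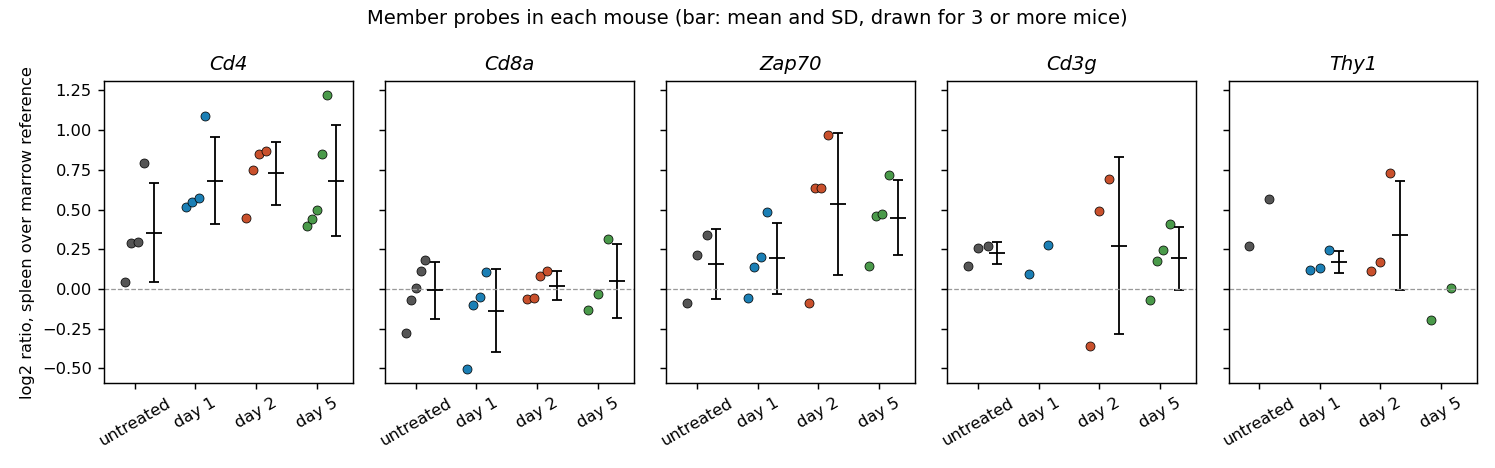
Log2 ratio of spleen over the marrow pool (vertical axis) for the 5 members with values in at least 10 mice, by group (horizontal axis), 1 point a mouse, with bars for mean and SD where 3 or more mice have a value. Cd4 points of the treated days lie at 0.40 to 1.22, and Cd8a points lie within -0.51 to 0.31 in all groups.

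**Figure D2:**
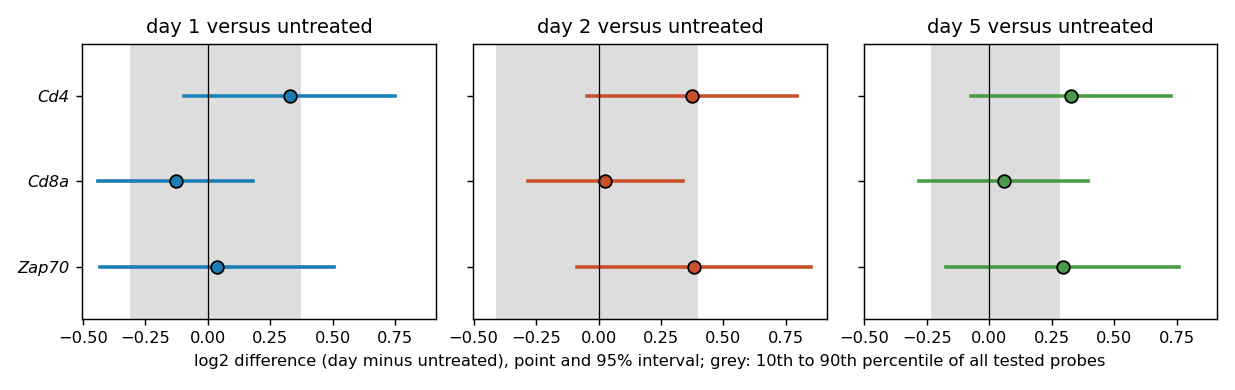
Log2 difference from untreated (horizontal axis) of the 3 tested members (vertical axis) on days 1, 2 and 5, as a point with its 95% interval; grey marks the 10th to 90th percentile of all tested probes. All 9 intervals include 0, and the highest point is Zap70 on day 2 at 0.38.

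The CD3 chains and Thy-1 could be described but were outside the test. Cd3g, the gamma chain, had values of 0.14, 0.26 and 0.27 in untreated mice, 0.091 and 0.27 on day 1, -0.36, 0.49 and 0.69 on day 2, and -0.069, 0.18, 0.25 and 0.41 on day 5. The day 2 mice lay both above and below every mouse of the other groups. Thy1 had 0.27 and 0.57 in untreated mice, 0.12, 0.13 and 0.25 on day 1, 0.11, 0.17 and 0.73 on day 2, and -0.19 and 0.0026 on day 5. Its 2 day 5 mice lay below all others, while its 2 measurements in a mouse differed by a median of 0.60 over 7 mice. When a value in 1 mouse of each group was enough to enter the test, Thy1 on day 5 differed from untreated by -0.51 ± 0.25 (adjusted p = 0.846) and Cd3g by -0.034 ± 0.22 (adjusted p = 0.993). Neither passed in any comparison.

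The least-read chains gave single measurements. Cd3e, the epsilon chain, had 1.57 in untreated mouse 4, 0.18 in day 1 mouse 4 and 0.82 in day 2 mouse 2. Cd247, the zeta chain, had 0.12, 0.77 and -0.57 in 1 mouse each on days 1, 2 and 5. Cd3d, the delta chain, had 0.086 in a day 1 mouse and 0.32 in a day 5 mouse. These 8 values are on 1 measurement each, so they order no groups.

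Cd4 and Cd8a were then compared within each mouse, as the Cd4 value minus the Cd8a value. A shift common to both cancels in it where both rest on the same measurements. In untreated mice 2, 3 and 5 Cd4 had a value on 1 measurement and Cd8a on 2, and in untreated mouse 4 Cd4 had 2 and Cd8a 1. A shift of a single measurement therefore does not cancel in these controls. Of the treated mice with both values, day 1 mouse 3 alone had such unequal measurements. Cd4 minus Cd8a, a difference of log2 ratios, averaged 0.82 ± 0.53 on day 1 (SD, n = 4), against 0.39 ± 0.46 in untreated mice (n = 4). It averaged 0.71 ± 0.24 on day 2 (n = 4) and 0.79 ± 0.19 on day 5 (n = 3), against the same untreated mice. Each untreated mouse but mouse 4 (1.07) lay at 0.11 to 0.28, below every treated mouse (0.36 to 1.60), and mouse 4 lay above all day 2 and day 5 mice. The differences between groups were 0.42, 0.32 and 0.40, with exact two-sided permutation p = 0.314, p = 0.343 and p = 0.229, and 0.343 each after adjustment over the 3 days. The smallest p these designs allow is 0.0286 for days 1 and 2 and 0.0571 for day 5. With the 2nd technical column alone, where untreated mouse 4 is again the only control, the signs turned (-0.798, -0.629 and -0.541). The result also depended on the CD8 chain: with Cd8b1 in place of Cd8a, a choice made after seeing the data, the differences were 0.10, -0.088 and 0.65 on days 1, 2 and 5 (exact two-sided permutation p = 0.771, p = 0.857 and p = 0.111).

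From mouse to mouse the members showed low or negative correlations. Over mice, with group means removed, Pearson's r was -0.23 between Cd4 and Cd8a (15 mice), -0.55 between Cd4 and Zap70 (15 mice) and 0.041 between Cd8a and Zap70 (14 mice). These are descriptions of points that share arrays and a reference. The per-mouse median of the tested members was most like Ak1 (r = 0.741), Stk40 (0.723), Eps8 and Pax9 (0.681 each), Prodh (0.676) and Serpina3n (0.653), over 18 mice and 3807 probes searched. These are the extremes of that search, no chance level was computed for them, and the median rested on 1 member in 2 mice and on 2 members in 2 others. It was least like Rpl37a (-0.726), Pard6a (-0.653) and Vit (-0.645).

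Downstream of the receptor, adaptors and enzymes that carry the signal to the nucleus had 1 call against untreated. Of 9 tested genes (28 listed), 0 passed on day 1, 1 rose on day 2 and 0 passed on day 5. Over all probes 2.33% passed on day 1, 3.31% rose on day 2 and 0.0721% passed on day 5, so counts this small do not set the list apart. The gene that rose was Nfatc1, a transcription factor released to the nucleus by calcineurin in T cells and also used in B cells and other cells. Its values were 0.30, 0.48, 0.53, 0.72 and 0.92 on day 2, against -0.53, -0.20, -0.035, 0.18 and 0.27 in untreated mice. It was higher by 0.65 ± 0.18 (SE, adjusted p = 0.0253). On day 5 it had -0.52, -0.32, -0.20, -0.17 and 0.14, a difference of -0.81 ± 0.18 from day 2 (adjusted p = 0.00860). In that comparison it was the 1 call among the 9 genes, where 1.50% of all probes fell. The day 2 call was lost without untreated mouse 4 or 5 or day 2 mouse 2 or 3, with adjusted p between 0.0536 and 0.0777. In all it was lost in 9 of 33 alternative settings, among them quantile normalization, equal spread, the 1st technical column alone (adjusted p = 0.0566) and the fit without the 3 mice of lowest technical correlation (0.51 ± 0.19, adjusted p = 0.157). The other members with the smallest p did not pass. Fyb, an adaptor between the receptor and integrins, differed by 1.01 ± 0.39 on day 1 (adjusted p = 0.218). Lat, the membrane scaffold that ZAP-70 phosphorylates, differed by -0.91 ± 0.39 on day 5 against day 2 (adjusted p = 0.209), and Fyn, a kinase related to Lck, by -0.48 ± 0.26 (adjusted p = 0.350). The median of the 9 genes was 0.15 on day 1, 0.24 on day 2 and -0.035 on day 5.

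Of 7 tested costimulators and coreceptor partners (16 listed), none passed against untreated and 1 fell on day 5 against day 2, where 1.50% of all probes fell. That was Slamf6, a receptor of the SLAM family on T, B and NK cells. Its values were 0.14, 0.20, 0.22, 0.22 and 0.40 on day 5, against 0.45, 0.61, 0.66, 1.10 and 1.17 on day 2. The difference was -0.56 ± 0.15 (adjusted p = 0.0371). This call was lost in 14 of 33 alternative settings, 7 of them leaving out 1 mouse (day 2 mouse 3, 4 or 5, or day 5 mouse 1, 3, 4 or 5, adjusted p 0.0526 to 0.103). Cd28, the main costimulatory receptor of T cells, averaged -0.26 ± 0.37 on day 2, against 0.28 ± 0.20 in untreated mice (SD, n = 5 each), a difference of -0.54 ± 0.18 (SE, adjusted p = 0.0652). Its difference from untreated was -0.39 ± 0.19 on day 1 (adjusted p = 0.384) and -0.40 ± 0.18 on day 5 (adjusted p = 0.923). Cd8b1 differed by 0.19, 0.27 and -0.36 from untreated on days 1, 2 and 5 (adjusted p = 0.853, 0.603 and 0.923) and by -0.63 ± 0.26 on day 5 against day 2 (adjusted p = 0.196).

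Signal brakes and T cell identity genes had no call, which with 5 and 7 tested genes is near the all-probe shares of 2.33% on day 1 and 8.31% on day 2. Of 5 tested brakes (19 listed), Ptpn6, the phosphatase SHP-1 of many blood cells, had the smallest p on day 1 at 0.52 ± 0.17 (adjusted p = 0.132), and Ctla4 differed by 0.068 ± 0.22 on day 2 (adjusted p = 0.892). Of 7 T cell identity and homing genes (16 listed), Satb1, a chromatin organiser, differed by 0.49 ± 0.18 on day 1 (adjusted p = 0.169). Klf2, which maintains quiescence and recirculation of T cells, differed by -0.48 ± 0.19 on day 5 against day 2 (adjusted p = 0.164). Among 4 tested regulatory T cell genes (8 listed) 1 fell on days 1 and 2 and rose on day 5 against day 2. Over all probes 1.39% fell on day 1, 5.00% fell on day 2 and 3.80% rose on day 5 against day 2. The called gene was Izumo1r, a folate receptor family member on regulatory T cells. It averaged -1.87 ± 0.17 on day 2, against -0.21 ± 0.19 in untreated mice (SD, n = 5 each), a difference of -1.66 ± 0.17 (SE, adjusted p = 2.18e-06). The day 1 difference was -0.91 ± 0.18 (adjusted p = 0.00825) and day 5 against day 2 was 1.39 ± 0.17 (adjusted p = 2.83e-05). The other 3 genes of that list, Tnfrsf18, Itgae and Ctla4, did not pass in any comparison. Tnfrsf18 had signs opposite to Izumo1r, at 0.46 ± 0.21 on day 2 (SE, adjusted p = 0.212) and -0.54 ± 0.21 on day 5 against day 2 (adjusted p = 0.166). Itgae and Ctla4 differed by -0.10 and 0.068 on day 2, and by -0.18 and -0.31 on day 5 against day 2.

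**Figure D3:**
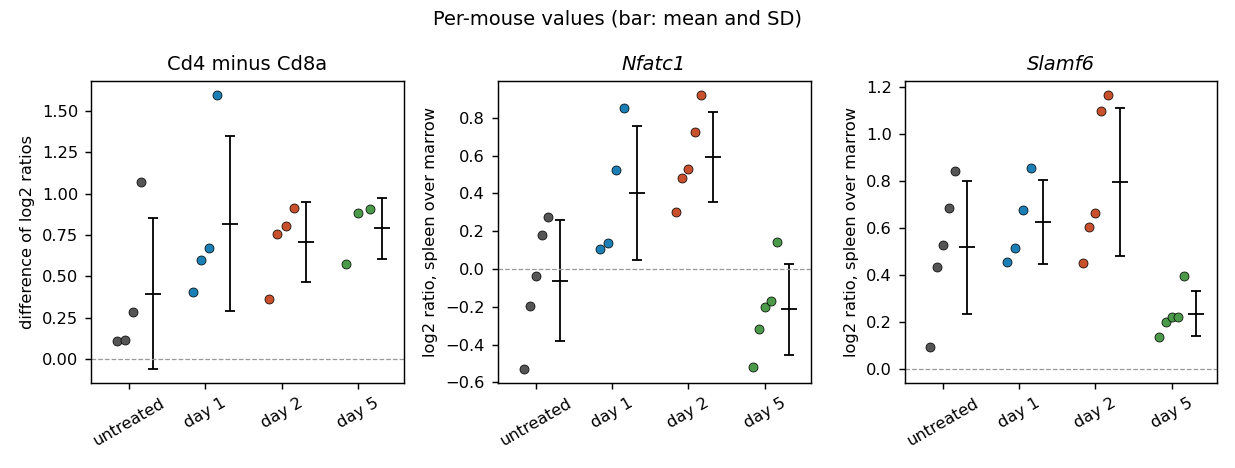
Per-mouse Cd4 minus Cd8a (difference of log2 ratios) and the log2 ratios of Nfatc1 and Slamf6 (vertical axes) by group (horizontal axis), 1 point a mouse, with mean and SD. Untreated mouse 4 stands at 1.07 for Cd4 minus Cd8a, Nfatc1 is at 0.30 to 0.92 on day 2, and Slamf6 at 0.14 to 0.40 on day 5.

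Calls in lists of other cells were counted in the same way, beside shares over all probes of 2.33% on day 1 and 8.31% on day 2, with no test of the difference between lists. Mature B cell genes (8 tested) and NK and cytotoxic cell genes (8 tested) had none against untreated, and in the NK list the smallest p was that of Ncr1, an activating receptor of NK cells, on day 1 (0.56 ± 0.15, adjusted p = 0.0528). For day 5 against day 2, 2 of 8 B cell genes fell, against 1.50% of all probes: Cd22, an inhibitory receptor of B cells, with a difference of -0.96 ± 0.16 (adjusted p = 0.000615), and Ms4a1, which encodes CD20, with -0.66 ± 0.18 (adjusted p = 0.0329). The Ms4a1 call was lost in 11 of 33 alternative settings, 5 of them leaving out 1 mouse (day 2 mouse 2, 4 or 5, or day 5 mouse 1 or 4), and the difference ranged from -0.72 to -0.22. Of 10 mitosis genes 5 fell on day 1 and 5 on day 2, at medians of -1.15 and -1.13. On day 5 against day 2, 5 rose, where 3.80% of all probes rose. In each case the genes were Cdc20, Cdk1, Prc1, Nusap1 and Tpx2. Of 9 red cell precursor genes 4 fell on day 1 (Rhd, Kel, Ermap and Alas2) and 6 on day 2 (those and Car2 and Tfrc). The 9 genes had 11 probes, and a gene counted when any of its probes passed. A 2nd Rhd probe did not pass on day 1 (mean -0.189, against 0.147 in untreated mice). A 2nd Car2 probe did not pass on day 2 (mean -0.274, against 0.338) or for day 5 against day 2. Macrophage genes (6 tested) had 1 that rose on day 1 (Siglec1) and 2 on day 2 (Siglec1 and Mrc1). Stroma genes (9 tested) had 1 on each of these days (Col14a1), and dendritic cell genes (5 tested) and the 6 granule genes none. For day 5 against day 2, 5 of the 9 red cell precursor genes and 1 granule gene (Ltf) rose. In the macrophage list 1 rose (C1qa) and 1 fell (Siglec1), and 1 stroma gene fell (Col14a1). In the per-mouse medians, mitosis genes lay between -2.61 and -1.26 on day 2, against -0.52 and -0.30 in untreated mice, and the tested receptor members between -0.061 and 0.64, against -0.090 and 0.29. The receptor medians do not rest on the same genes in every mouse: untreated mouse 1 and day 5 mouse 2 had 1 member, untreated mouse 5 and day 5 mouse 3 had 2, and day 2 mouse 3 had none. Whether the fall of these transcripts moved the relative level of Cd4 or Zap70 was not tested.

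**Figure D4:**
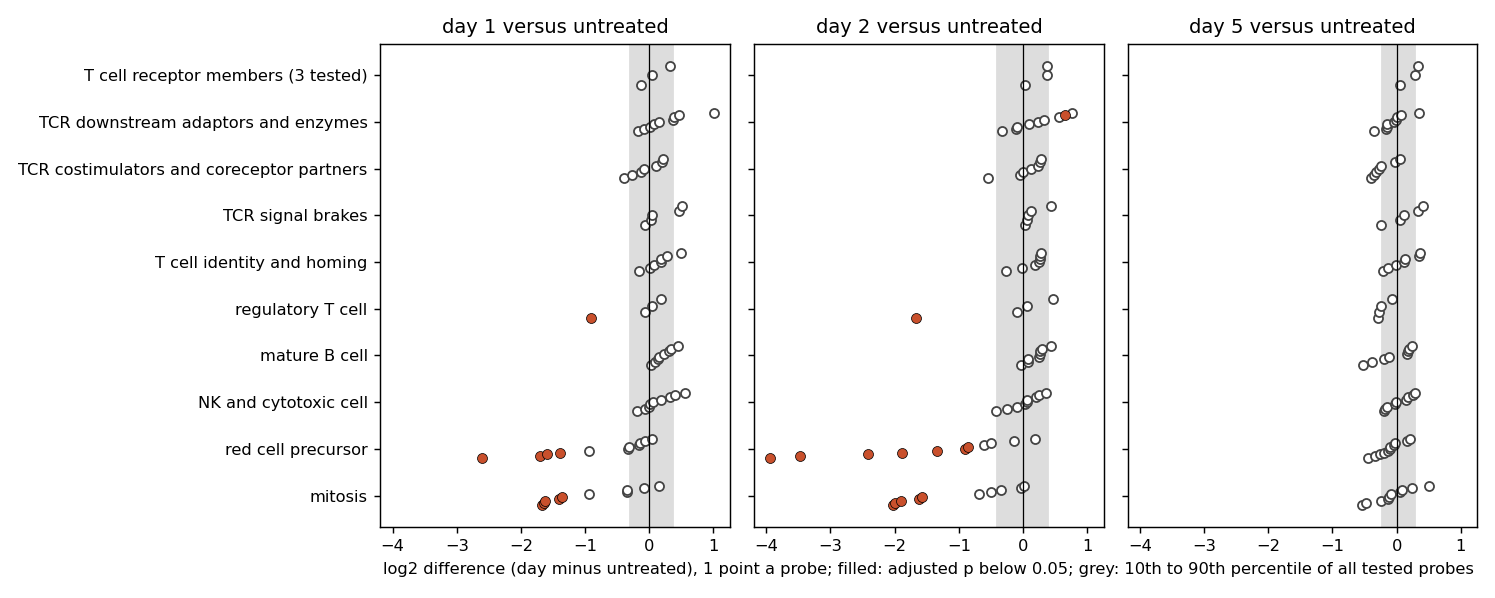
Log2 difference from untreated (horizontal axis) of each tested probe in 10 gene lists (vertical axis) on days 1, 2 and 5; filled points passed at adjusted p below 0.05, and grey marks the 10th to 90th percentile of all tested probes. The 3 receptor members lie between -0.13 and 0.38, while red cell precursor probes reach -3.94 on day 2.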

How the data were processed

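Per the labels' protocols, RNA of spleen cells was amplified and labelled with Cy5 and the marrow reference with Cy3, with no dye swap. The deposited values are log2 ratios of sample over reference, with array medians near 0 as deposited (-0.0212 to 0.0132). The base was taken as 2. Scanner software, background correction, spot filter and normalization: not given in the sources used here. The reference is labelled untreated marrow while its treatment field names cyclophosphamide, and it cancels between groups. No slide or date is given, so no batch was tested.

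Symbols came from the array annotation, updated by gene identifier in a RefSeq table (GRCm38.p6, names alone): 10032 probes have 1 gene, 170 several and 3241 none. Each mouse was represented by the mean of its technical columns. The test took the 8319 probes (61.9%) measured in 3 or more mice per group, using lmFit and eBayes of limma 3.58.1 (R 4.3.3) on all groups together (prior degrees of freedom 5.52), two-sided, Benjamini-Hochberg over all tested probes, threshold 0.05. The design text calls the mice independently harvested. The median SE was 0.174 to 0.183, and the spread between mice and the technical spread were not separated in it. The steps were tested on simulated data. Exact permutation tests used Python 3.11.15. Members and gene lists were chosen with earlier results of these data known. The rule names every member and, of other lists, genes past the threshold or else up to 3 of smallest p; of the lists of other cells the text keeps to the calls that bear on its counts. Genes were shown for likeness by Pearson's r with the per-mouse member median. Alternatives were other scalings, single technical columns or a mouse random block, other filters, a variance trend, array weights, a replicate block, only the groups compared, and leaving out mice.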

Additional observations from a re-analysis of the deposited data

Results flagged for a closer look

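The Cd4 ratio of day 1 mouse 4 was 1.09, far from the other 3 day 1 mice at 0.52, 0.55 and 0.57. Its gap to the nearest of them was 0.906 of the group's range. Of 14 groups of 4 or more mice examined, 11 of members and 3 of Cd4 minus Cd8a, this was the 1 that stood out, and chance alone sets apart about 1 in 20. The same mouse had the lowest Cd8a ratio (-0.51) and the highest Cd4 minus Cd8a value (1.60). Without it the Cd4 difference on day 1 was 0.19, with no call in either case.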

How the results depend on the processing

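No member passed under any alternative that gave a value. The lowest adjusted p over all comparisons and settings was 0.0758 for Zap70, 0.149 for Cd4 (day 2, without the 3 mice of lowest technical correlation, 0.56) and 0.498 for Cd8a. Requiring a value in all mice left no member. Over 27 same-numbered pairs of mice from different groups, with group means removed, r averaged -0.00472 and single pairs ran from -0.249 to 0.325. The mean does not show whether any single pair is linked. With a replicate block 0 members passed. Among other named calls the block ended those of Slamf6 (adjusted p = 0.0596) and Ms4a1 (adjusted p = 0.0524) on day 5 against day 2.

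Signs of differences that did not pass, those of Cd4 against untreated among them, turned as follows. The cause was not tested beyond the mice each setting holds. The 2nd technical column alone gave Cd4 -0.43, -0.29 and -0.43 on days 1, 2 and 5 against untreated, Cd8a 0.072 on day 1, -0.033 on day 5, -0.032 for day 2 against day 1 and -0.073 for day 5 against day 2, and Cd4 minus Cd8a -0.798, -0.629 and -0.541. Cd8b1 in place of Cd8a, chosen after seeing the data, gave -0.088 for the Cd4 minus CD8 chain difference on day 2. The 1st column alone gave Cd8a -0.014 on day 2, Cd4 -0.079 for day 2 against day 1 and 0.047 for day 5 against day 2, and Zap70 0.066 for the last. Quantile normalization gave Cd8a -0.0014 on day 2, Zap70 -0.054 on day 1, Cd4 -0.034 and 0.21 between days and Zap70 0.063 for day 5 against day 2. Equal spread gave Zap70 -0.021 on day 1 and 0.087 for day 5 against day 2, and Cd4 -0.044 and 0.14 between days. Without the 3 mice of lowest technical correlation Cd8a was -0.099 on day 5 and -0.10 for day 5 against day 2, and Zap70 -0.15 on day 1 and 0.014 for day 5 against day 2. The replicate block gave Zap70 -0.040 on day 1 and Cd4 -0.020 for day 2 against day 1. Leaving out 1 mouse at a time moved Zap70 on day 1 between -0.086 and 0.13, Cd8a on day 2 between -0.040 and 0.076 and on day 5 between -0.074 and 0.15. For day 2 against day 1 it moved Cd4 between -0.0074 and 0.18, and for day 5 against day 2 Cd4 between -0.18 and 0.024, Cd8a between -0.10 and 0.12 and Zap70 between -0.30 and 0.056. Cd4 minus Cd8a then ran from 0.165 to 0.649 for day 1, from 0.221 to 0.540 for day 2 and from 0.301 to 0.620 for day 5.

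Calls over all probes ran from 76 to 452 for day 1 (194 as reported), from 316 to 974 for day 2 (691), from 0 to 24 for day 5 (6), 0 to 27 for day 2 against day 1 (5) and 83 to 730 for day 5 against day 2 (441). For day 2 the split was 275 upward and 416 downward, against 103 and 242 with equal spread; for day 5 against day 2 it was 316 and 125, against 123 and 19. Scaling also ended the Cd22 and Ms4a1 calls (quantile normalization, adjusted p = 0.224 and adjusted p = 0.739), and the Nfatc1 call on day 5 against day 2 (adjusted p = 0.0519), while Izumo1r on day 2 passed under all 33 alternatives. Its day 1 call was lost without the 3 mice of lowest technical correlation (adjusted p = 0.0903) and with the 1st column alone (adjusted p = 0.0538). The alternatives for genes that are no members, the same settings, were chosen after seeing the data.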
